A study of Homo sapiens with 10 samples.

Results

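The response to siRNA against SET that is common to a line labelled p53 wild type and a line labelled p53 knockout was measured by RNA sequencing in 10 libraries, all of those in the series. Both lines were made by CRISPR/Cas9 in U2OS, a human osteosarcoma cell line of mesenchymal origin, and were obtained after selection and identification of clones, so each stands for a single selected line. CRISPR Ctr cells (here the Ctr line) got si-Ctr, a control siRNA, or si-SET, an siRNA against SET, with 3 libraries each. CRISPR p53-KO cells (here the p53-KO line) got the same siRNAs, with 2 libraries each, and RNA was taken at 96 h in every group. The effect over both lines set the 5 si-SET libraries against the 5 si-Ctr libraries with the line as a covariate. The design text says in 1 place that the CRISPR construct was aimed at SET and in another that p53 was knocked out, so groups here follow the sample labels. The labels speak of biological replicates but not of separate cultures, and a p-value therefore covers the variation among these libraries, which may be technical. Neither the sequence nor the number of siRNAs is stated in the labels, and changes caused by off-target binding could not be assessed.

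SET is a nuclear protein of the acidic histone chaperone class. It binds histone tails and shields them from acetylation, takes part in the complex through which granzyme A nicks DNA, and inhibits protein phosphatase 2A (PP2A), a large family of serine and threonine phosphatases built from a catalytic, a scaffold and a regulatory subunit. PP2A dephosphorylates many kinases and cytoskeletal regulators, including members of the MAP kinase cascade. SET also binds the unacetylated tail of p53 and represses p53 target genes. Measured over both lines, the siRNA comparison asks which genes move whether a line is labelled p53 wild type or knockout.

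Values were log2(FPKM + 1), where FPKM is fragments per kilobase of transcript, scaled to the sequenced total, and folds on this scale understate the change of low genes. Each library listed 25593 entries. The 14813 that reached FPKM 1 in 2 or more libraries were tested with limma. Between 13804 and 14153 entries reached FPKM 1 in a library. The number of reads per library is not given in the files, and the authors' own intervals had a median half-width of 5.19 to 6.47% of FPKM in genes of FPKM 10 or more. Of 15 mesenchymal and osteoblast markers 10 reached FPKM 1 in some library, with VIM the highest and IBSP at 0 in all. Of 12 epithelial, 12 blood and 11 endothelial markers 4, 1 and 3 reached FPKM 1, and HBB was at 0 everywhere.

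Over both lines si-SET changed 7456 of 14813 genes, 50.3% of those tested, at an adjusted p below 0.05. Of these 4182 (28.2%) were higher and 3274 (22.1%) lower with si-SET. A gene is called shared here when it passed over both lines and also passed in the same direction in each line. The changes in each line came from a common fit of the 4 groups, which share an estimate of the spread. In all 3622 genes (24.5%) were shared, 1916 of them higher (12.9%) and 1706 lower (11.5%). Changes of at least 2-fold over both lines were found in 94 shared higher (0.635%) and 115 shared lower genes (0.776%). In 3159 genes (21.3%) every si-SET library was above every si-Ctr library within each line, and in 2544 (17.2%) each was below. Another 264 genes (1.78%) passed in opposite directions in the 2 lines. The majority of higher calls depended on scaling, since higher genes made up 52.9% of shared calls as deposited and 45.7% after median-of-ratios scaling across libraries. The count of shared genes was 2562 without the first and 2580 without the second si-SET library of the p53-KO line, and 2375 when the libraries of each line were fitted apart.

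The 2 lines have no library in common, but their calls share an estimate of the spread and so are not fully independent. Of the 4564 genes higher in the Ctr line (30.8% of tested genes), 1916 were also higher in the p53-KO line (42% of the former), 129 were lower there (2.83%) and 2519 were not called. Of the 2926 genes higher in the p53-KO line (19.8%), the same 1916 make up 65.5%. Of the 3553 lower in the Ctr line (24%) and the 2645 lower in the p53-KO line (17.9%), 1706 were shared, 48% and 64.5% of each. Called or not, 3663 of the 4564 (80.3%) and 2805 of the 3553 (78.9%) had the same sign in the p53-KO line. The same held in the Ctr line for 2517 of the 2926 (86%) and 2240 of the 2645 (84.7%). The p53-KO line had 2 libraries per group against 3, and the part of this in the unequal shares was not tested. The shares called in both lines were larger among genes that changed at least 2-fold. Of 145 genes at least 2-fold lower in the p53-KO line 135 were called lower in the Ctr line (93.1%), and of 102 at least 2-fold higher 91 were called higher (89.2%). In the other direction 128 of 157 lower genes (81.5%) and 126 of 188 higher genes (67%) of the Ctr line were shared.

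**Figure D1:**
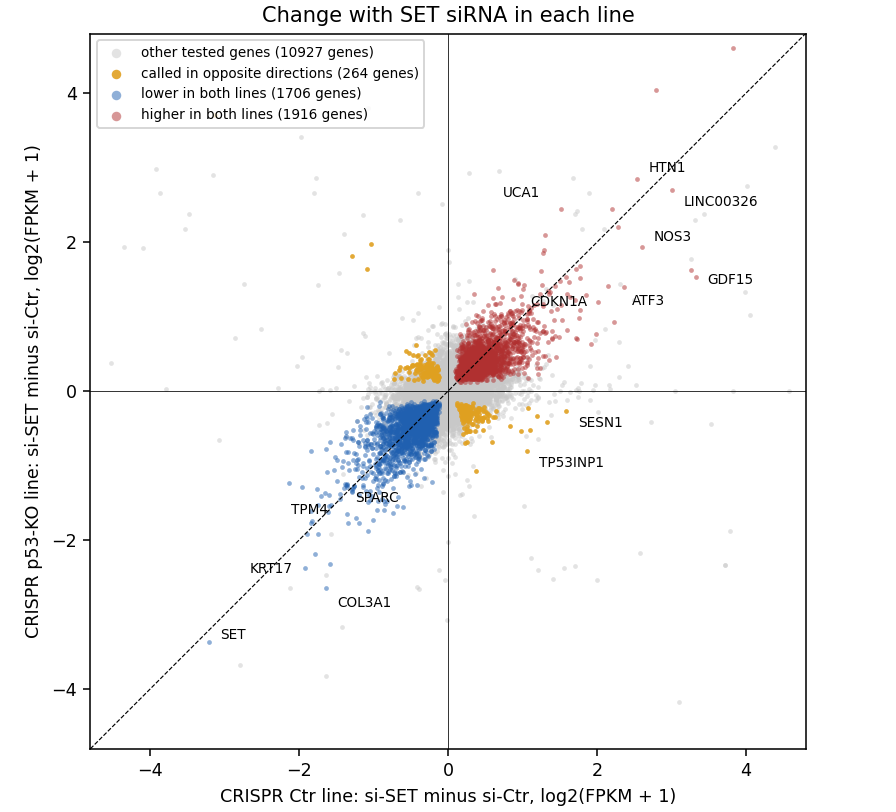
Log2 change with si-SET in the Ctr line (horizontal axis) and the p53-KO line (vertical axis) for each tested gene, with 1916 shared higher genes in red, 1706 shared lower genes in blue and 264 genes called in opposite directions in orange. The broken line marks equal change, and 8 small RNA symbols lie outside the axes. Shared genes lie in the upper right and lower left by definition.

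The target itself was measured first. SET (chromosome 9, 131445934 to 131458675, in the files' coordinates, whose build is not given) had 121, 125 and 126 FPKM with si-Ctr and 12.3, 13.3 and 12 with si-SET in the Ctr line, and 158 and 169.7 against 14.9 and 14.9 in the p53-KO line. Every si-SET library was far below every si-Ctr library of its line. SET mRNA was 9.9-fold lower in the Ctr line and 11-fold lower in the p53-KO line, and over both lines it fell by 3.28 ± 0.05 (SE) on the log2 scale (limma, adjusted p = 7.95e-11). It was the largest fall among named genes. SETP20, a near-identical copy of SET whose reads cannot be told apart with certainty, had 5.43, 5.79 and 3.03 FPKM with si-Ctr and 0.464, 0.497 and 0.497 with si-SET in the Ctr line, and 5.92 and 6.62 against 0.507 and 0.291 in the p53-KO line.

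Among 21 genes of SET and related chaperones or partners, 5 were shared lower (SET included) and 1 shared higher, against 11.5% and 12.9% of all tested genes. In either direction 28.6% of the list was shared, close to the 24.5% of all tested genes, and 1 member passed in opposite directions. Where a pair of log2 changes or folds is given, the Ctr line comes first and the p53-KO line second. HMGB1, an abundant chromatin protein and a relative of HMGB2, which is found in a complex with SET, had 89.3, 95.5 and 93.6 FPKM with si-Ctr and 62.8, 62.8 and 57.9 with si-SET in the Ctr line, and 124 and 150.4 against 90.6 and 93.1 in the p53-KO line. The fall of HMGB1 was close to equal in the lines, at -0.59 in the Ctr line and -0.57 in the p53-KO line on the log2 scale. NAP1L4, a nucleosome assembly protein of the same family as SET, had log2 changes of -0.58 in the Ctr line and -0.51 in the p53-KO line. ASF1A, a chaperone of histones H3 and H4, and TSPYL4 also fell in both lines, with log2 changes of -0.27 and -0.58 and of -0.41 and -0.33. TSPYL2, another relative in the family, rose instead, with 16.3, 16 and 18.2 FPKM with si-Ctr and 30.6, 28.7 and 25.7 with si-SET in the Ctr line, and 15.9 and 15 against 23.6 and 22.4 in the p53-KO line. The SET partners ANP32A and ANP32B were not shared, with log2 changes of -0.37 and -0.18 and of -0.39 and -0.08 in the Ctr and p53-KO lines.

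Messenger RNA for the main catalytic subunit of PP2A, the phosphatase that SET inhibits, was lower in both lines. PPP2CA, its gene, had 52.7, 54.8 and 57.3 FPKM with si-Ctr and 29.3, 27.7 and 27.2 with si-SET in the Ctr line, and 57.9 and 60.6 against 27.4 and 28.7 in the p53-KO line. All si-SET libraries lay below all si-Ctr libraries, but such separation was a condition for naming the largest shared changes of a list and is no result. The mean was 1.96-fold and 2.11-fold lower, and the log2 change over both lines was -0.99 ± 0.04 (SE; limma, adjusted p = 1.72e-07). PPP2CB, the second catalytic gene, was not shared and had log2 changes of 0.29 and 0.05, and the scaffold gene PPP2R1A had -0.22 and 0.01. Of 24 PP2A subunits and inhibitors 7 were shared lower (11.5% of all tested genes were) and 1 shared higher (12.9% were), with a median of 0.01 over both lines against 0.03 over all tested genes. The lower genes were PPP2CA, the regulatory subunits PPP2R5A, PPP2R5C, PPP2R5D, PPP2R5E and PPP2R3A, and STRN, a regulatory subunit that scaffolds kinases. PPP2R5D had 65.8, 64.5 and 65.9 FPKM with si-Ctr and 39.5, 41 and 40.6 with si-SET in the Ctr line, and 81.5 and 81.6 against 55.5 and 56 in the p53-KO line. PPME1, the methylesterase that removes the activating methyl group from the catalytic subunit, was the shared higher gene, at 0.41 and 0.26 on the log2 scale. The count of 7 rested on several libraries, and was 3 and 4 without the second and the third si-Ctr libraries of the Ctr line, 2 without the third si-SET library of that line and 4 without the first si-SET library of the p53-KO line.

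Several of the largest shared rises were of genes at low level in the si-Ctr libraries. The 12 largest rises and falls, and the largest shared changes of each list, were named only where the siRNA groups did not overlap within either line, so that separation is part of the choice and no result for them. LINC00326, a long intergenic noncoding RNA (chromosome 6, 133409219 to 133427717), had 0.886, 0.763 and 1.39 FPKM with si-Ctr and 14.2, 14.8 and 16.1 with si-SET in the Ctr line, and 0.678 and 0.745 against 9.75 and 10.4 in the p53-KO line. It rose 14.8-fold in the Ctr line and 14.2-fold in the p53-KO line, with a log2 change over both of 2.88 ± 0.10 (SE; limma, adjusted p = 4.79e-08). HTN1, which encodes histatin 1, a salivary antimicrobial peptide, had 1.96, 1.97 and 1.73 FPKM with si-Ctr and 18.4, 14.2 and 14.7 with si-SET in the Ctr line, and 1.93 and 3.02 against 23.7 and 23.4 in the p53-KO line. It rose 8.36-fold and 9.53-fold. The neighbouring and similar histatin gene HTN3 had log2 changes of 1.30 and 2.09. HTN3 lies at chromosome 4, 70894130 to 70902255 and HTN1 at chromosome 4, 70916159 to 70924559, and reads of such similar genes may have been split between them, so their values are uncertain.

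NOS3, endothelial nitric oxide synthase (chromosome 7, 150688144 to 150711687), had 1.03, 0.908 and 0.705 FPKM with si-Ctr and 10.1, 9.74 and 11.5 with si-SET in the Ctr line, and 0.326 and 0.295 against 4.34 and 3.74 in the p53-KO line. Its level was lower in the p53-KO line with either siRNA, while the folds were 11.9-fold and 13-fold. Endothelial markers gave summed FPKM of 4.72 to 4.84 in the si-SET libraries of the Ctr line against 5.30 to 5.78 with si-Ctr, and of 3.46 to 4.40 against 3.80 to 3.89 in the p53-KO line. ATP6V0D2, a subunit of the proton pump of lysosomes and of bone-resorbing cells, had 0.704, 0.56 and 1 FPKM with si-Ctr and 7.66, 6.55 and 8.26 with si-SET in the Ctr line, and 0.916 and 1.01 against 7.74 and 8.31 in the p53-KO line. It rose 9.92-fold and 8.34-fold, and the difference between the lines was 0.08 on the log2 scale with a 95% interval of -0.30 to 0.45. LINC00161, another noncoding RNA, had 0.0965, 0.629 and 0.106 FPKM with si-Ctr and 4.39, 4.92 and 5.01 with si-SET in the Ctr line, and 0.703 and 0.175 against 6.2 and 7.25 in the p53-KO line. It was under FPKM 1 in every si-Ctr library and above 4 in every si-SET library.

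UCA1, a long noncoding RNA of urothelial cancer, had 62.8, 57.3 and 73.1 FPKM with si-Ctr and 180.1, 174 and 201 with si-SET in the Ctr line, and 3.44 and 2.92 against 22.4 and 21 in the p53-KO line. Its starting level differed widely between the lines, and it rose in both. ACTBL2, an actin-like gene, had 2.5, 2.64 and 2.11 FPKM with si-Ctr and 10.8, 9.9 and 11.2 with si-SET in the Ctr line, and 0.722 and 0.822 against 4.52 and 4.84 in the p53-KO line, and rose by 1.77 in the Ctr line and 1.68 in the p53-KO line on the log2 scale. RGS16, which speeds up the switching off of G protein signals, had 2.42, 1.66 and 2.26 FPKM with si-Ctr and 13.8, 12.9 and 14 with si-SET in the Ctr line, and 1.58 and 1.68 against 4.02 and 4.02 in the p53-KO line. All 3 si-SET libraries of the Ctr line were far above its si-Ctr libraries, and the rise was smaller in the p53-KO line, at 0.93 against 2.23 on the log2 scale.

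**Figure D2:**
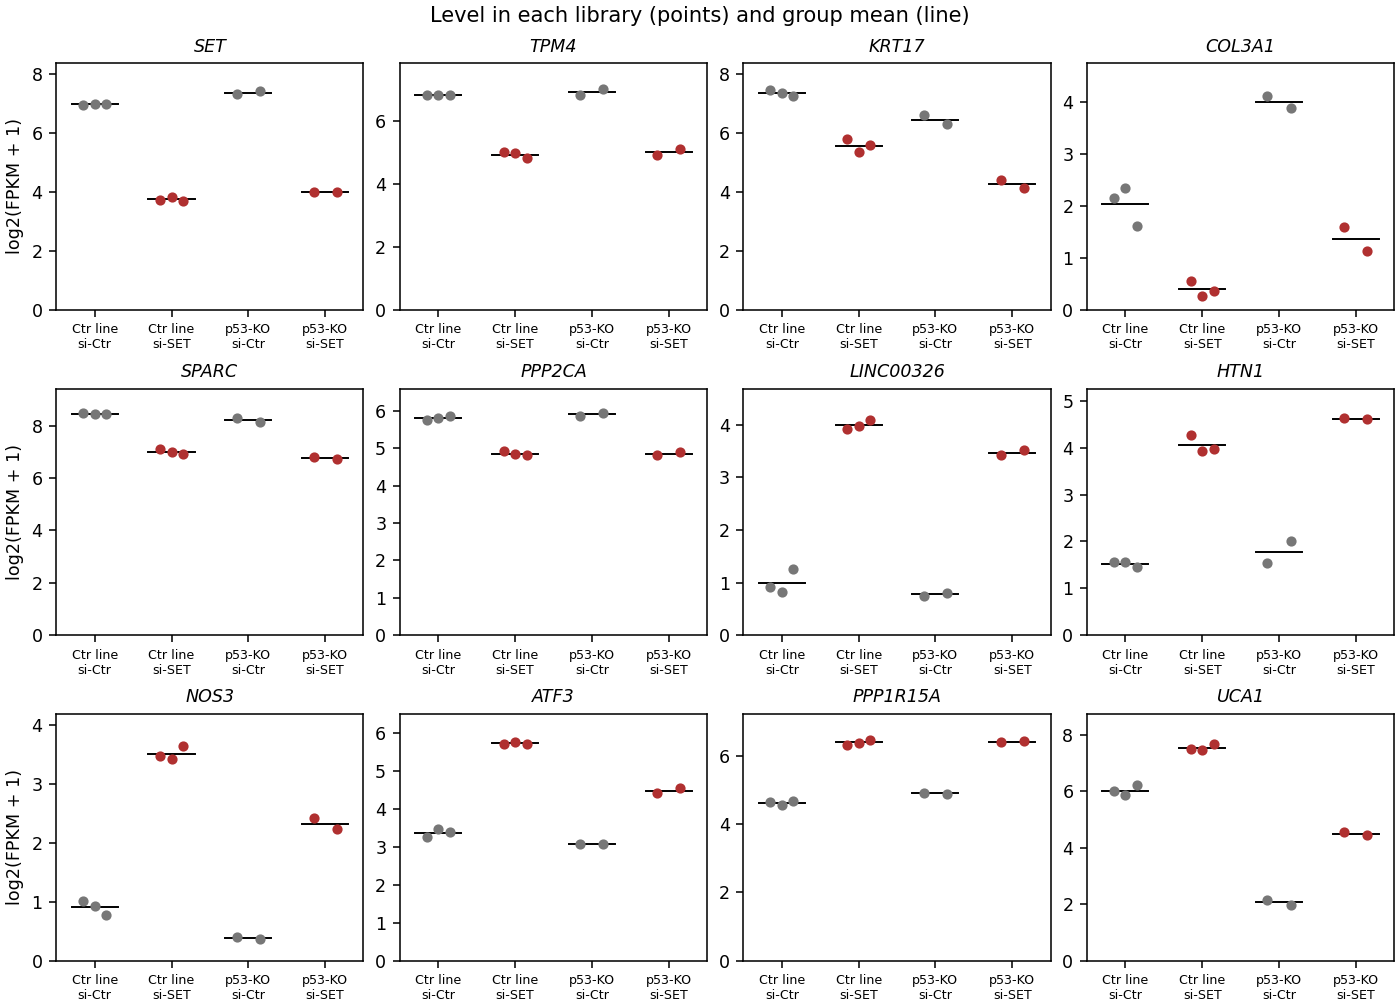
Level of 12 genes in each library, as log2(FPKM + 1), by line and siRNA, with a bar at the group mean (n = 3, 3, 2 and 2). In each panel the si-SET points (red) of a line lie wholly on 1 side of its si-Ctr points (grey), above for the 6 risers and below for SET, TPM4, KRT17, COL3A1, SPARC and PPP2CA. This separation was a condition for naming shared genes by size.

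Most measured genes of the integrated stress response rose in both lines. This pathway slows general translation when the initiation factor eIF2 is phosphorylated and favours translation of ATF4, a transcription factor that turns on genes for amino acid synthesis, amino acid import and tRNA charging. Of 31 tested ATF4 response genes 22 were shared higher (71.0%, against 12.9% of all tested genes), 0 were shared lower and 1 (PSAT1) passed in opposite directions. The median log2 change was 0.55 over both lines against 0.03 over all tested genes, with 0.58 in the Ctr line and 0.51 in the p53-KO line. Over all alternatives tried, 19 to 24 members were shared higher. The lists and their members were chosen with earlier results of these data known. An excess of shared members over all tested genes can follow in part from that choice, in this list and every other.

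Promoter stretches of 4 shared members that hold the letters TGATGNAA, the element bound by ATF4 with a C/EBP partner, are printed to show where the letters lie, in capitals, with 40 bases on each side. They are from RefSeq on GRCh38.p14, read 5′ to 3′ on the strand of the gene, and capitals that begin with TTGCATCA are the same letters on the other strand.
ATF3: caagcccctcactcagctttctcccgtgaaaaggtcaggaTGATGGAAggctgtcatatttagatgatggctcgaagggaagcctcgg
CHAC1: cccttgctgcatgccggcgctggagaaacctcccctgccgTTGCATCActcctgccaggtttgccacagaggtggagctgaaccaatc
ASNS: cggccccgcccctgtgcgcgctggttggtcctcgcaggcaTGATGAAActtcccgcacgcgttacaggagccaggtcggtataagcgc
AARS: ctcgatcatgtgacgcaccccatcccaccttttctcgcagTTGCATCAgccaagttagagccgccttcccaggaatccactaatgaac
The stretches are at chr1:212565176-212565263 on the plus strand, chr15:40953222-40953309 on the plus strand, chr7:97872429-97872516 on the minus strand and chr16:70289646-70289733 on the minus strand. Of the 31 list genes 25 had a RefSeq window, and 6 of the 25 (24.0%) held the letters on either strand within 250 bases before a start, against 1061 of 27305 genes with a window (3.89%). The other matching genes were CEBPG and FGF21. The list is of ATF4 response genes, so an excess of the letters can follow from that choice and is no result about si-SET. By window, 6 of 38 (15.8%) held the letters, against 1104 of 35116 (3.14%). A match of letters describes the window and is not a binding site.

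Of the transcription factors in the list, ATF4 itself had 358, 371 and 375 FPKM with si-Ctr and 679.8, 702 and 692 with si-SET in the Ctr line, and 421 and 409.7 against 682 and 726 in the p53-KO line. Its rise of 0.85 ± 0.04 (SE) on the log2 scale (limma, adjusted p = 2.72e-07) began from a higher level than the other genes of the list described here. ATF3, a stress-induced repressor and activator, had 8.53, 9.97 and 9.41 FPKM with si-Ctr and 51.1, 53.4 and 51.4 with si-SET in the Ctr line, and 7.39 and 7.42 against 20.1 and 22.2 in the p53-KO line. It rose 5.59-fold and 2.85-fold. DDIT3, which encodes the pro-apoptotic factor CHOP, had 23.8, 21.8 and 21.9 FPKM with si-Ctr and 73.3, 76.6 and 67.2 with si-SET in the Ctr line, and 38.3 and 39.7 against 94.5 and 94.9 in the p53-KO line. The p53-KO line started higher and also ended higher.

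PPP1R15A encodes GADD34, the subunit that directs a phosphatase to eIF2 and so ends the response, and had 24.3, 22.7 and 24.6 FPKM with si-Ctr and 80, 82.3 and 88.3 with si-SET in the Ctr line, and 29.5 and 28.6 against 84 and 85.5 in the p53-KO line. The 2 lines reached nearly the same level, and the log2 changes were 1.77 in the Ctr line and 1.51 in the p53-KO line. NUPR1, a small stress-induced nuclear protein, had 56.6, 58 and 57.4 FPKM with si-Ctr and 188, 185 and 195 with si-SET in the Ctr line, and 75.4 and 73.1 against 171 and 179 in the p53-KO line. CHAC1, which breaks down glutathione, and ASNS, asparagine synthetase, are among the genes whose stretches are printed above. CHAC1 rose by 1.59 and 0.82 and ASNS by 1.49 and 0.73 on the log2 scale in the Ctr and p53-KO lines, larger in the Ctr line for each (limma difference, adjusted p = 0.00313 and adjusted p = 0.000495). ASNS had 68.4, 72.9 and 74.9 FPKM with si-Ctr and 203, 209 and 203 with si-SET in the Ctr line, and 97.3 and 106 against 166 and 173 in the p53-KO line.

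Transfer RNA synthetases of the list also rose. AARS, alanyl-tRNA synthetase, had 69.7, 72.1 and 73.4 FPKM with si-Ctr and 111, 111 and 111 with si-SET in the Ctr line, and 50.5 and 47.7 against 78.2 and 76.4 in the p53-KO line. Its log2 changes were 0.62 and 0.65, those of GARS (glycine) 0.77 and 0.51, of MARS (methionine) 0.40 and 0.41 and of WARS (tryptophan) 0.44 and 0.24. The serine and folate enzymes PHGDH, SHMT2 and MTHFD2 had 0.46 and 0.46, 0.52 and 0.60 and 0.79 and 0.47, and the amino acid carrier chains SLC3A2 and SLC7A1 0.44 and 0.64 and 0.40 and 0.59. The pseudokinase TRIB3 had 1.07 and 0.97. Members that were not shared include the cystine carrier SLC7A11 at 0.89 and 0.19 and the cysteine-producing enzyme CTH at 1.12 and 0.16.

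The unfolded protein response of the endoplasmic reticulum, which can also start eIF2 phosphorylation, had few shared calls. Of 17 of its genes 1 was shared higher (12.9% of all tested genes were) and 0 shared lower, and the higher count was 4 without the third and 2 without the second si-SET library of the Ctr line, 2 without the first si-Ctr library of the p53-KO line and 3 with the replicate block. The median log2 change was 0.10 over both lines, 0.23 in the Ctr line and -0.12 in the p53-KO line. HERPUD1, a membrane protein of the disposal machinery, was the shared gene at 0.77 and 0.38. HSPA5, the main chaperone of the compartment, had 0.46 and -0.14 and HSP90B1 -0.01 and -0.39.

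A majority of the lysosome and autophagy genes were higher with si-SET in both lines. Of 27 tested members 16 were shared higher (12.9% of all tested genes were) and 2 shared lower (11.5% were), with medians of 0.44 in the Ctr line and 0.26 in the p53-KO line. The count of 16 was 10 without the first si-SET library of the p53-KO line and 10 when each line was fitted apart. Besides ATP6V0D2, GABARAPL1, an autophagosome membrane protein, had 47.7, 47 and 50.2 FPKM with si-Ctr and 115, 120.3 and 123 with si-SET in the Ctr line, and 59.8 and 60.7 against 111 and 113 in the p53-KO line. Its rise was 2.47-fold in the Ctr line and 1.85-fold in the p53-KO line. ATP6V0D1, the widely expressed relative of ATP6V0D2, had log2 changes of 0.54 and 0.69. The kinase ULK1, which starts autophagy, had 0.52 and 0.52, the cholesterol exporter NPC1 0.59 and 0.43, the calcium channel MCOLN1 0.44 and 0.57 and the protease CTSD 0.45 and 0.43. The 2 members that fell were the membrane protein LAMP2, at -0.38 and -0.60, and the protease CTSB, at -0.34 and -0.31. TFEB, a main regulator of these genes, was not shared, at -0.15 and 0.22.

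**Figure D3:**
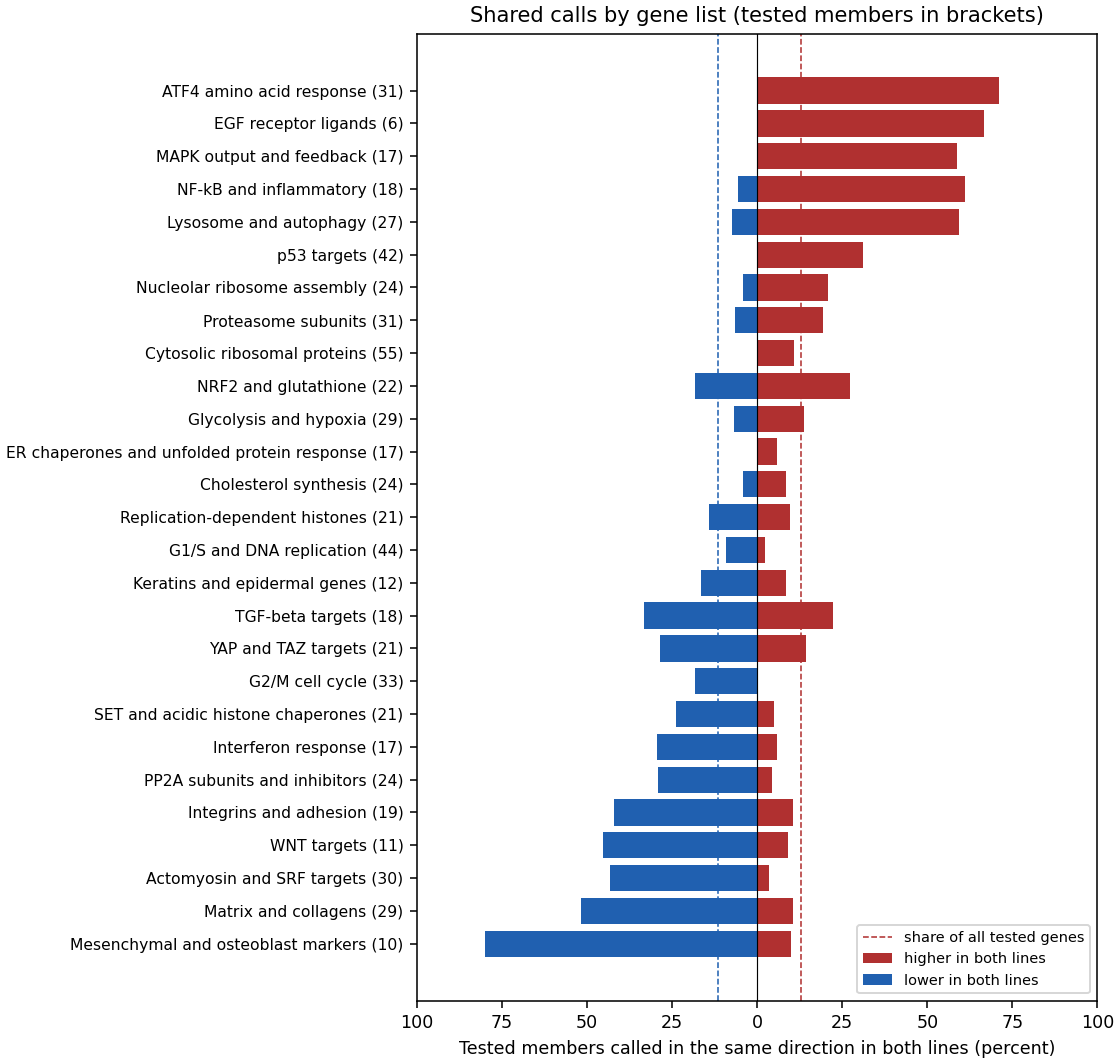
Share of each list's tested members called higher (red, right) or lower (blue, left) in both lines, with the number tested in brackets; the epithelial, blood and endothelial marker lists are not drawn. Broken lines mark the shares over all tested genes, 12.9% higher and 11.5% lower. The lists were chosen with earlier results of these data known, so an excess over these shares can follow in part from that choice. The ATF4, EGF ligand, MAPK, NF-kB and lysosome lists drawn here reach farthest to the right, and the mesenchymal, matrix, WNT, actomyosin and integrin lists farthest to the left.

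Most tested ligands of the EGF receptor family, genes downstream of MAP kinases and inflammatory genes were shared higher, against 12.9% of all tested genes. Of 6 tested ligands of the EGF receptor family 4 were shared higher and 0 lower, at a median of 0.47 on the log2 scale. When a mean FPKM of at least 5 was required, 2 were shared higher. TGFA, a membrane-shed ligand, had 12.8, 11 and 13.5 FPKM with si-Ctr and 34.1, 29.2 and 30.8 with si-SET in the Ctr line, and 2.8 and 2.18 against 7.44 and 6.18 in the p53-KO line. It was several times lower in the p53-KO line with either siRNA, and rose 2.52-fold and 2.73-fold. AREG, amphiregulin, had 3.34, 4.04 and 3.95 FPKM with si-Ctr and 10.4, 10.4 and 8.24 with si-SET in the Ctr line, and 0.937 and 1.06 against 2.28 and 2.37 in the p53-KO line. HBEGF had 0.51 and 0.31 on the log2 scale and EGF itself 0.56 and 0.44. NRG1 and EREG were not shared.

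Of 17 genes of MAP kinase output and feedback 10 were shared higher and 0 shared lower, with medians of 0.44 and 0.50 in the Ctr and p53-KO lines. DUSP5, a nuclear phosphatase that acts on the kinase ERK, had 8.39, 7.58 and 8.19 FPKM with si-Ctr and 17.5, 18.1 and 17.9 with si-SET in the Ctr line, and 6.44 and 6.07 against 13.8 and 13.9 in the p53-KO line. Its fold was 2.21-fold in each line, and the difference was 0.03 on the log2 scale with a 95% interval of -0.15 to 0.20. FOSL1, an AP-1 subunit, had 56.7, 50.8 and 59.2 FPKM with si-Ctr and 84.8, 85.3 and 89.8 with si-SET in the Ctr line, and 26.5 and 22.4 against 50 and 49.9 in the p53-KO line. IER3, an early response gene, had log2 changes of 0.90 and 1.08, the feedback inhibitor SPRY2 0.61 and 0.76, the transcription factor ETV5 0.45 and 0.79 and the receptor EPHA2 0.53 and 0.55. EGR1 and JUNB were not shared, at -0.12 and -0.42 and -0.05 and 0.31.

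Of 18 NF-kB and inflammatory genes 11 were shared higher and 1 shared lower, with a median of 0.44 over both lines, and 7 were shared higher when a mean FPKM of at least 5 was required. CSF2, which encodes the growth factor GM-CSF, had 2.57, 3.37 and 3.44 FPKM with si-Ctr and 16.2, 17 and 13.9 with si-SET in the Ctr line, and 0.199 and 0 against 1.58 and 1.45 in the p53-KO line. It was listed at 0 in the second si-Ctr library of the p53-KO line, so its fold there is uncertain. CCL20, a chemokine, had 2.62, 3.25 and 2.56 FPKM with si-Ctr and 11.5, 9.18 and 6.66 with si-SET in the Ctr line, and 1.62 and 3.21 against 5.27 and 6.79 in the p53-KO line. MMP3, a matrix-degrading protease, had 149.9, 138 and 169.8 FPKM with si-Ctr and 564, 574 and 686 with si-SET in the Ctr line, and 125 and 137 against 222 and 224 in the p53-KO line. Its rise was larger in the Ctr line, by 1.22 on the log2 scale (limma, adjusted p = 0.00118). The chemokines IL8 and CXCL3 and the protease MMP1 had log2 changes of 0.65 and 1.17, 0.89 and 1.49 and 0.94 and 1.44, and the prostaglandin enzyme PTGS2 0.77 and 0.60. The mitochondrial superoxide dismutase SOD2 was the shared lower member, at -0.51 and -0.44. NFKBIA, the inhibitor that NF-kB induces, was not shared, at -0.06 and 0.05. Blood cell markers summed to FPKM 10.2 to 11.4 with si-Ctr and 9.26 to 11.5 with si-SET in the Ctr line, and to 4.69 to 4.84 and 4.86 to 5.90 in the p53-KO line. CD68 was the only such member to reach FPKM 1, and the part of these markers in the inflammatory list was not tested.

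Many actomyosin genes were lower with si-SET in both lines. Several genes of the list are targets of serum response factor (SRF), which binds the CArG box in promoters of contractile genes and is activated when actin polymerizes. Of 30 tested members 13 were shared lower (11.5% of all tested genes were), 1 shared higher (MYLK) and 1 passed in opposite directions (ACTA2). The median log2 change was -0.26 over both lines, -0.35 in the Ctr line and -0.14 in the p53-KO line. Over all alternatives tried, 9 to 16 members were shared lower.

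Promoter stretches with a CArG box are printed for 3 shared lower members and for MYLK, the shared higher member, with the box in capitals and 40 bases on each side (RefSeq, GRCh38.p14, 5′ to 3′ on the strand of the gene).
TPM4: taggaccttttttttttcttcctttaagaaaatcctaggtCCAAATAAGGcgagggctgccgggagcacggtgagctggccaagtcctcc
ACTG1: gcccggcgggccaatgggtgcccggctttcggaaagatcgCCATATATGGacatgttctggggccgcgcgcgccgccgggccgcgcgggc
FLNA: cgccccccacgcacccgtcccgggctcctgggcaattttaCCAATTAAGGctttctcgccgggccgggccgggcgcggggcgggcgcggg
MYLK: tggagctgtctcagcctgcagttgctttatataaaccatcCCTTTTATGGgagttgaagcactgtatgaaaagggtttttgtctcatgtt
They lie at chr19:16067325-16067414 on the plus strand, chr17:81512844-81512933 on the minus strand, chrX:154374679-154374768 on the minus strand and chr3:123620593-123620682 on the minus strand. Of 28 list genes with a window 9 (32.1%) held the box within 250 bases before a start, against 394 of 27305 genes (1.44%). The other matches were in ACTN1, CNN2, FHL1, FHL2 and SRF, of which FHL1 was shared lower and FHL2, not shared, rose over both lines (log2 changes of 0.62 and 0.17). A box was thus present in windows of genes that fell and of genes that rose, and overlap with other motifs was not examined. The list holds known SRF targets, so an excess of the box can follow from that choice and is no result about si-SET. Genes of the list also had more windows each, and by window 11 of 58 (19.0%) held the box, against 407 of 35116 (1.16%).

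TPM4, a tropomyosin that winds along actin filaments, was the actomyosin gene with the largest shared fall. TPM4 had 112, 114 and 112 FPKM with si-Ctr and 31.2, 30.5 and 27.3 with si-SET in the Ctr line, and 114 and 129.7 against 29.4 and 33.7 in the p53-KO line. It was 3.81-fold lower in the Ctr line and 3.86-fold lower in the p53-KO line, and fell by 1.90 ± 0.06 (SE) on the log2 scale over both (limma, adjusted p = 4.23e-08). The difference between the lines was 0.02, with a 95% interval of -0.23 to 0.27. TPM1, another tropomyosin, had 212, 225 and 211 FPKM with si-Ctr and 104, 109.9 and 107 with si-SET in the Ctr line, and 248 and 267 against 114 and 125 in the p53-KO line. TPM2 and TPM3 were not shared, at -0.27 and -0.14 and -0.14 and -0.09.

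Troponins, the calcium sensors of striated muscle, are expressed at low level here. TNNC1, troponin C, had 16.3, 15 and 10.3 FPKM with si-Ctr and 3.9, 2.92 and 2.68 with si-SET in the Ctr line, and 13.9 and 12.6 against 3.48 and 3.04 in the p53-KO line. TNNT2, cardiac troponin T, had 7.61, 8.25 and 9.12 FPKM with si-Ctr and 1.05, 1.29 and 1.04 with si-SET in the Ctr line, and 2.11 and 1.77 against 0.296 and 0.203 in the p53-KO line. Their FPKM folds were 4.38-fold and 4.08-fold lower for TNNC1 and 7.4-fold and 7.77-fold lower for TNNT2. TNNC1 is not a member of the actomyosin list and was named by the size of its fall.

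TAGLN, the actin-bundling protein transgelin, had 161, 157 and 152 FPKM with si-Ctr and 58.9, 60.8 and 61.9 with si-SET in the Ctr line, and 162 and 146 against 63.5 and 65.5 in the p53-KO line. In each line it was more than 2-fold lower with si-SET. The focal adhesion protein VCL (vinculin) had 53.4, 54.2 and 54.8 FPKM with si-Ctr and 34.5, 35.5 and 35.2 with si-SET in the Ctr line, and 59.5 and 63.1 against 38.1 and 37.1 in the p53-KO line. Smaller shared falls were seen in MYL9, a myosin light chain, at -0.59 and -0.64, the calponin CNN1 at -0.63 and -0.58, CALD1 (caldesmon) at -0.46 and -0.63, the filamin FLNA at -0.57 and -0.32 and the cytoplasmic actin ACTG1 at -0.48 and -0.21. ACTB, the other cytoplasmic actin, was not shared, at -0.47 and -0.06. MYLK, the kinase that phosphorylates myosin light chains, had 12.7, 13.6 and 13.3 FPKM with si-Ctr and 28.4, 28.9 and 29.5 with si-SET in the Ctr line, and 9.59 and 9.57 against 10.8 and 11.2 in the p53-KO line and rose more in the Ctr line (limma difference 0.89, adjusted p = 0.000151). SRF itself was not called, at -0.06 and 0.20.

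**Figure D4:**
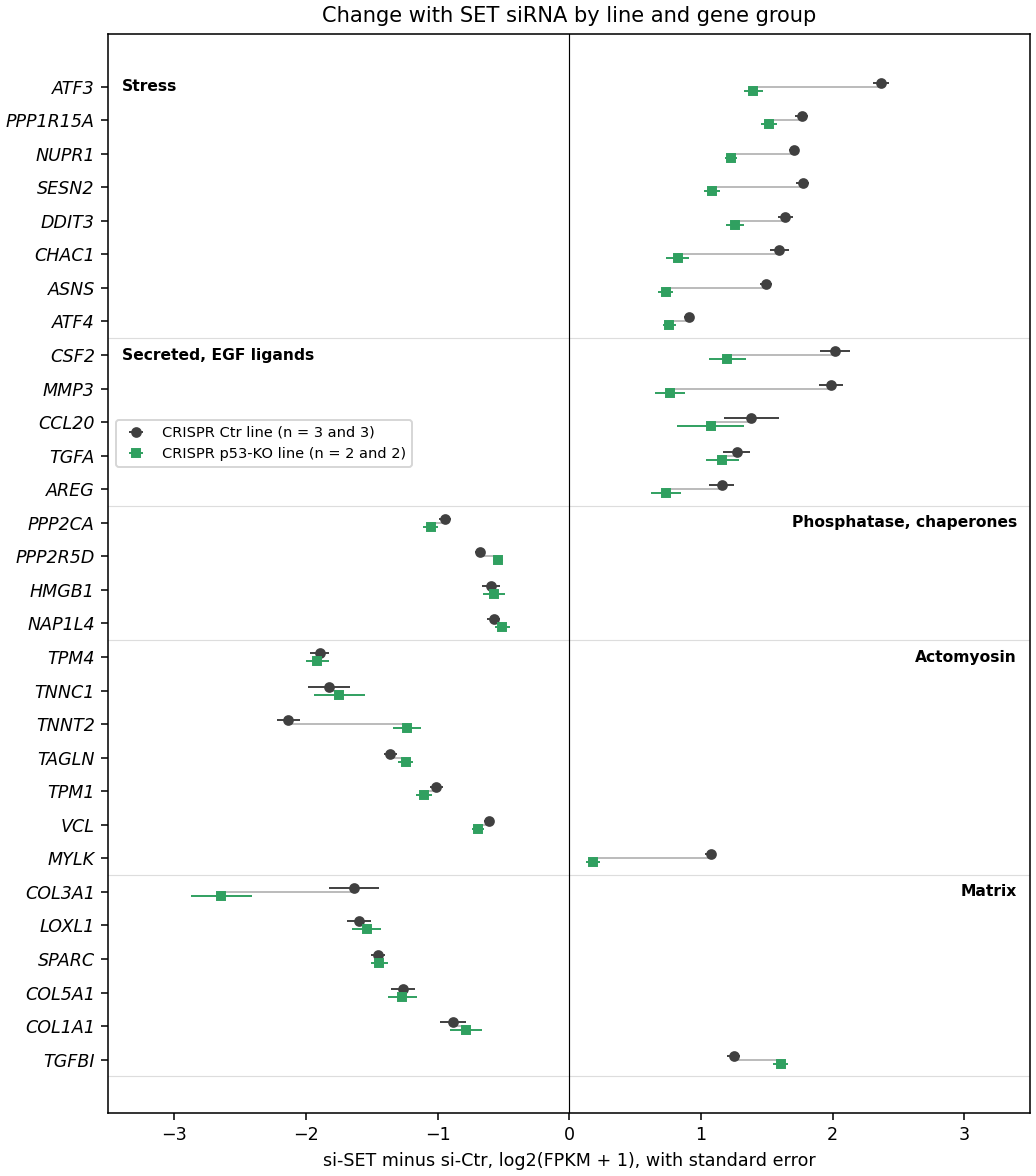
Log2 change with si-SET in the Ctr line (circles, n = 3 and 3) and the p53-KO line (squares, n = 2 and 2) for genes of 5 groups, with standard errors from limma and a line joining the 2 values of a gene. All genes drawn are shared genes, so both values of each lie on the same side of 0 by that choice and this is no result. The lines are farthest apart for MMP3 (1.99 and 0.76), COL3A1 (-1.64 and -2.64) and ATF3 (2.37 and 1.40).

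Many genes of the extracellular matrix were lower as well. Of 29 tested matrix and collagen genes 15 were shared lower (11.5% of all tested genes were) and 3 shared higher (12.9% were), with medians of -0.36 in the Ctr line and -0.37 in the p53-KO line. COL3A1, a fibrillar collagen chain (chromosome 2, 189839099 to 189877472), had 3.4, 4.03 and 2.05 FPKM with si-Ctr and 0.462, 0.2 and 0.278 with si-SET in the Ctr line, and 16.3 and 13.7 against 1.99 and 1.19 in the p53-KO line. Its level was several times higher in the p53-KO line, and it fell 10.1-fold and 9.45-fold. SPARC, a collagen-binding glycoprotein of bone, had 354, 344 and 351 FPKM with si-Ctr and 136, 125 and 121 with si-SET in the Ctr line, and 310.4 and 284 against 112 and 105 in the p53-KO line. The fall was 2.75-fold and 2.73-fold, and the difference between the lines had a 95% interval of -0.21 to 0.18 on the log2 scale.

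LOXL1, an enzyme that cross-links elastin, had 51.3, 48.2 and 44.4 FPKM with si-Ctr and 16, 14.5 and 15.1 with si-SET in the Ctr line, and 49.2 and 38.1 against 14.7 and 13.8 in the p53-KO line. The collagen chains COL5A1, COL5A2, COL1A1 and COL16A1 had log2 changes of -1.26 and -1.27, -0.72 and -1.14, -0.89 and -0.78 and -0.82 and -0.87 in the Ctr and p53-KO lines. The fibrillins FBN1 and FBN2 had -0.54 and -0.38 and -0.41 and -0.45. TGFBI, an adhesive matrix protein induced by TGF-beta, moved the other way, with 50.4, 53 and 48.5 FPKM with si-Ctr and 115, 123 and 127 with si-SET in the Ctr line, and 31.7 and 31.7 against 97.7 and 99.2 in the p53-KO line. The other shared higher members, COL4A2 and COL6A3, had small changes of 0.18 and 0.25 and 0.14 and 0.18, and median-of-ratios scaling left 1 shared higher member in place of 3. FN1, fibronectin, was not called, at 0.05 and 0.05.

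Most tested markers of mesenchymal and osteoblast identity fell along with these. Of 10 tested markers 8 were shared lower (against 11.5% of all tested genes) and 1 shared higher, SPARC and COL1A1 among the former. The summed FPKM of the 15 markers was 2075 to 2124 with si-Ctr and 1313 to 1431 with si-SET in the Ctr line, and 2073 to 2198 against 1539 to 1677 in the p53-KO line. In bulk RNA fewer cells of a type and less RNA per cell cannot be told apart. VIM, the intermediate filament of mesenchymal cells, had 1273, 1248 and 1297 FPKM with si-Ctr and 1006, 919.5 and 926 with si-SET in the Ctr line, and 1465 and 1429.6 against 1324 and 1207 in the p53-KO line. S100A4, a calcium-binding protein, had 90.6, 90.5 and 89.1 FPKM with si-Ctr and 41.5, 47.5 and 40 with si-SET in the Ctr line, and 73.7 and 64.1 against 33.9 and 33.7 in the p53-KO line. RUNX2, the transcription factor of osteoblasts, had -0.38 and -0.45 on the log2 scale, the cadherins CDH11 and CDH2 -1.11 and -0.74 and -0.64 and -0.36, and the phosphatase ALPL -0.55 and -0.43. MSX2, a homeobox gene of bone, was higher, at 0.35 and 0.44. EPCAM, an epithelial adhesion protein, rose from low levels, with 1.85, 1.61 and 1.9 FPKM with si-Ctr and 3.91, 3.35 and 4.75 with si-SET in the Ctr line, and 1.58 and 1.87 against 4.41 and 3.83 in the p53-KO line. It was the only shared gene of 4 tested epithelial markers, and the 12 epithelial markers summed to FPKM 16.8 to 18.2 with si-Ctr and 19.5 to 21.5 with si-SET in the Ctr line, and 14.1 to 14.4 and 13.6 to 15.2 in the p53-KO line. The part of these markers in the falls of matrix and actomyosin genes was not tested.

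Among 19 integrins and adhesion genes 8 were shared lower and 2 shared higher, against 11.5% and 12.9% of all tested genes. ITGAV, a receptor chain for vitronectin, had 65.3, 68.2 and 63.5 FPKM with si-Ctr and 50.4, 48.8 and 45.7 with si-SET in the Ctr line, and 52.2 and 60.2 against 29.1 and 30.5 in the p53-KO line, and its partner ITGB8 had -0.49 and -0.85 on the log2 scale. ITGA2, a collagen receptor chain, rose instead, at 0.59 and 0.28. KRT17, a keratin, had 173, 163 and 152 FPKM with si-Ctr and 54.2, 39.5 and 47.4 with si-SET in the Ctr line, and 96.4 and 77.7 against 20.1 and 16.7 in the p53-KO line. It fell 3.46-fold and 4.74-fold, while KRT8 had -0.54 and -0.37 and KRT7 rose by 0.54 and 0.68 from low levels. Of 12 keratins and epidermal genes 3 were shared in all, a share close to the 24.5% of all tested genes. Another 2 passed in opposite directions, and the list had median log2 changes of -0.27 in the Ctr line and 0.23 in the p53-KO line.

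The remaining genes named by the size of their fall belong to no list used here. EDN2, the vasoconstrictor endothelin 2, had 6.76, 9.02 and 6.16 FPKM with si-Ctr and 1.64, 2.05 and 1.54 with si-SET in the Ctr line, and 6.2 and 5.62 against 0.291 and 0.489 in the p53-KO line. CXCL14, a chemokine, had 5.24, 5.85 and 4.51 FPKM with si-Ctr and 0.924, 0.499 and 0.799 with si-SET in the Ctr line, and 4.55 and 4.62 against 1.02 and 0.675 in the p53-KO line. FOXS1, a forkhead transcription factor, had 8.02, 7.14 and 7.01 FPKM with si-Ctr and 1.64, 1.12 and 1.27 with si-SET in the Ctr line, and 9.67 and 7.79 against 2.17 and 1.53 in the p53-KO line. All 3 were above FPKM 4 in each si-Ctr library and under FPKM 3 in each si-SET library. LBH, a developmental transcription cofactor, had 29.4, 29.2 and 28.1 FPKM with si-Ctr and 7.19, 6.24 and 6.78 with si-SET in the Ctr line, and 45.3 and 42.9 against 18.9 and 16.3 in the p53-KO line. TMEM123, a membrane glycoprotein, had 136, 146 and 143 FPKM with si-Ctr and 47.1, 47.4 and 43.3 with si-SET in the Ctr line, and 142 and 169 against 49.1 and 49.9 in the p53-KO line, the fall being 3.08-fold and 3.14-fold. FAM70A, named only by its size, fell by 1.66 ± 0.09 (SE) over both lines (limma, adjusted p = 6.51e-07).

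Targets of 3 signalling pathways were mixed, and their counts stand against 12.9% shared higher and 11.5% shared lower over all tested genes. Of 18 TGF-beta targets 4 were shared higher and 6 shared lower, the latter count being 3 without the first or the second si-SET library of the p53-KO line. TGIF1 and SMAD6, which restrain the pathway, fell, with log2 changes of -0.63 and -0.61 and -0.88 and -0.36, and BHLHE40 and ID1 rose, by 0.61 and 0.65 and 0.49 and 0.45. Of 21 YAP and TAZ targets 6 were shared lower and 3 shared higher. AXL, a receptor kinase, had 96.9, 94.1 and 92.8 FPKM with si-Ctr and 46.3, 46 and 44 with si-SET in the Ctr line, and 109 and 105 against 41.7 and 41.4 in the p53-KO line. F3, tissue factor, had -1.22 and -0.93 and ANKRD1 rose, at 0.96 and 0.54, while CYR61 and CTGF, often used as readouts, were not shared at 0.05 and 0.00 and 0.16 and 0.38. Of 11 WNT targets 5 were shared lower and 1 higher, and 3 were shared lower when a mean FPKM of at least 5 was required. BMP4 had -0.86 and -0.63, AXIN2 -0.87 and -0.46, LGR4 -0.39 and -0.92 and the cyclin CCND1 -0.27 and -0.31.

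Of 17 tested interferon genes 5 were shared lower (11.5% of all tested genes were) and 1 shared higher, with a median of -0.28 over both lines. IFI6, an interferon-induced mitochondrial protein, had 16.8, 19.1 and 16.3 FPKM with si-Ctr and 9.92, 6.66 and 7.04 with si-SET in the Ctr line, and 17.7 and 17.1 against 9.57 and 7.91 in the p53-KO line. IFIT1, which binds foreign RNA ends, had 5.68, 6.33 and 6.05 FPKM with si-Ctr and 2.35, 1.99 and 2.21 with si-SET in the Ctr line, and 13.3 and 14.6 against 9.51 and 7.58 in the p53-KO line. ISG20, an exonuclease, was the shared higher member. It had 2.05, 2.31 and 3.1 FPKM with si-Ctr and 6.33, 5.29 and 5.29 with si-SET in the Ctr line. In the p53-KO line it had 4.49 and 3.4 against 9.92 and 8.14.

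Genes of the oxidative stress factor NRF2 went both ways. Of 22 tested 6 were shared higher and 4 shared lower, against 12.9% and 11.5% of all tested genes. Over both lines 14 were called higher and 4 lower, against 28.2% and 22.1% of all tested genes. OSGIN1 rose by 1.06 and 0.96, the haem-degrading enzyme HMOX1 by 0.77 and 0.69, the thioredoxin reductase TXNRD1 by 0.83 and 0.43 and the ferritin chain FTH1 by 0.57 and 0.44 on the log2 scale. The aldo-keto reductases AKR1C1, AKR1C2 and AKR1C3 fell, with log2 changes of -0.73 and -1.64, -0.61 and -1.55 and -0.44 and -1.11. They are close neighbours of nearly the same sequence, so their separate values are uncertain. They may not count as separate falls among the 4 shared lower members. NQO1, a widely used readout, was not shared, at 0.18 and -0.12.

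Other lists had shared calls of 10.9% to 25.8% of their tested members, against 24.5% of all tested genes. Glycolysis and hypoxia had 4 higher and 2 lower of 29, and the higher count was 2 without the second si-Ctr or the first si-SET library of the p53-KO line. SLC2A3, a glucose carrier, rose by 0.64 and 0.72 and LDHA, lactate dehydrogenase, had -0.50 and -0.33. Cholesterol synthesis had 2 higher and 1 lower of 24, and 3 members in opposite directions. Cytosolic ribosomal proteins had 6 higher of 55, a share of 10.9% against 12.9% of all tested genes, while 34 of the 55 were called higher and 0 lower over both lines (28.2% of all tested genes were higher). The count of 6 was 1 after median-of-ratios scaling, 0 with no filter or when each line was fitted apart, and from 0 without the first si-SET library to 11 without the first si-Ctr library of the p53-KO line when single libraries were left out. Of 31 proteasome subunits 6 were higher and 2 lower, with 3, 2 and 3 higher without the third si-SET library of the Ctr line and the first and second of the p53-KO line, and 0 when each line was fitted apart. Nucleolar ribosome assembly genes had 5 higher and 1 lower of 24, the higher count being 8 without the second si-Ctr and 3 without the second si-SET library of the p53-KO line. PSMA1, a subunit of the 20S core, stood out with 209, 221 and 215 FPKM with si-Ctr and 128, 130.3 and 115 with si-SET in the Ctr line, and 214 and 240.1 against 108 and 107 in the p53-KO line. Clustered histone genes had 2 higher and 3 lower of 21, HIST1H1C at 0.72 and 0.81 and HIST1H2AG at -1.25 and -1.04.

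Cell cycle genes included many that passed in opposite directions. Of 44 G1/S and replication genes 4 were shared lower (11.5% of all tested genes were), 1 shared higher (12.9% were) and 18 passed in opposite directions, lower in the Ctr line and higher in the p53-KO line, against 1.78% of all tested genes. Of 33 G2/M genes 6 were shared lower (18.2%) and 4 passed in opposite directions. The G2/M count was 3 without the first or second si-SET library of the Ctr line, 2 without the second si-Ctr or either si-SET library of the p53-KO line, and 1 when each line was fitted apart. CCNA2, cyclin A, was the exception by size. It had 59.1, 63.4 and 60.7 FPKM with si-Ctr and 19.7, 19.5 and 18.4 with si-SET in the Ctr line, and 66.6 and 73.2 against 31.6 and 33.2 in the p53-KO line, 3.19-fold and 2.16-fold lower. GINS1, part of the replicative helicase, had -0.96 and -0.47, cyclin CCNE2 -1.07 and -0.41 and the clamp loader RFC5 -0.79 and -0.34. POLE2, a polymerase subunit, was the shared higher gene, at 0.37 and 0.29.

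A subset of known p53 targets also rose where p53 is labelled knocked out. Of 42 tested targets 13 were shared higher (31.0%, against 12.9% of all tested genes), 0 shared lower and 9 passed in opposite directions. In the Ctr line 40 of the 42 were higher, against 30.8% of all tested genes. In the p53-KO line 13 were higher and 10 lower, against 19.8% and 17.9%. Of all genes higher in the Ctr line 42% were shared, so these targets were not shared more often than other genes higher there. The medians were 1.04 in the Ctr line and -0.01 in the p53-KO line. CDKN1A, the cyclin-dependent kinase inhibitor p21, had 163, 169.8 and 153 FPKM with si-Ctr and 741, 721 and 699 with si-SET in the Ctr line, and 6.84 and 6.51 against 19.4 and 19.3 in the p53-KO line. GDF15, a stress-induced cytokine, had 20, 19.4 and 16 FPKM with si-Ctr and 203, 185 and 192 with si-SET in the Ctr line, and 4.21 and 5.37 against 14.6 and 16.9 in the p53-KO line. Levels of both were far lower in the p53-KO line under either siRNA, and both rose there as well, 2.9-fold and 3.29-fold. GDF15 overlaps LOC100653010 (chromosome 19, 18496968 to 18499986 against 18499397 to 18516317). Without strand, reads in the stretch from 18499397 to 18499986 cannot be told apart. SESN2, also in the ATF4 list, had 21.7, 20.2 and 19.5 FPKM with si-Ctr and 71.9, 70.3 and 74.6 with si-SET in the Ctr line, and 15 and 13.9 against 31.6 and 31.8 in the p53-KO line. GADD45A, PMAIP1, TNFRSF10B and AEN, which act in arrest or apoptosis, had log2 changes of 1.42 and 0.96, 0.99 and 0.61, 1.16 and 0.52 and 0.84 and 0.91 in the Ctr and p53-KO lines.

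The genes that passed in opposite directions mark where sharing ends. SESN1, a p53 target that restrains growth signalling, had 11.3, 12 and 12.1 FPKM with si-Ctr and 39.7, 38.2 and 34.7 with si-SET in the Ctr line, and 3.48 and 3.55 against 2.55 and 2.94 in the p53-KO line. FAS, a death receptor, had 10.1, 10.3 and 10.1 FPKM with si-Ctr and 27.6, 27.1 and 26.3 with si-SET in the Ctr line, and 2.32 and 3 against 1.64 and 1.86 in the p53-KO line. TP53INP1, which promotes p53 activity, had 13, 15.3 and 12.7 FPKM with si-Ctr and 31.5, 29.9 and 27.3 with si-SET in the Ctr line, and 5.56 and 6.05 against 2.88 and 2.9 in the p53-KO line. In these 3 the si-SET libraries were above the si-Ctr libraries in the Ctr line and below them in the p53-KO line. KRTAP21-2 went the other way, at -1.03 and 1.98, and was listed at 0 in both si-Ctr libraries of the p53-KO line. The call of SESN1 over both lines was lost without any of the 6 libraries of the Ctr line, with the replicate block (limma, adjusted p = 0.0931) and with no filter on low values (adjusted p = 0.0588), while FAS was called over both lines without the second si-Ctr or either si-SET library of the p53-KO line.

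Equal direction does not mean equal size. The difference between the lines was called for 513 of the 3622 shared genes and not called for 3109. Over all 14813 genes it was called for 2831 (19.1%). Choosing genes called in the same direction leaves out the opposite genes, so these counts are not directly comparable. The count over all genes turned on single libraries, being 4589 or 1724 with the first or second si-Ctr library of the p53-KO line left out, 1143 or 1466 with its first or second si-SET library left out, and 1820 or 1760 with the first or second si-SET library of the Ctr line left out. Of the 267 shared higher genes with a called difference, 195 changed more in the Ctr line and 72 in the p53-KO line. Of 246 such shared lower genes, 134 changed more in the Ctr line and 112 in the p53-KO line. The 95% interval of the difference lay within 0.5 on the log2 scale on either side of 0 for 2608 shared genes (72%), so for the rest a difference of that size is not excluded by the interval. Among the 117 shared genes at least 2-fold changed in each line, 50 higher and 67 lower, 53 (45.3%) had so narrow an interval. The 50 had a median gene span of 8.1 kb and the 67 of 22.2 kb in the files' coordinates, against 23.7 kb over all tested genes, and median levels of FPKM 14.4 and 11.6 against 11.6.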

How the data were processed

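Total RNA from 10 libraries was sequenced. The submitters' processing notes name Cufflinks 2.0.2, TopHat2 2.0.4 and bcl2fastq 1.8.4, and the genome build is not given in the sources used here. The deposited files hold FPKM per gene with an interval and a status, computed by the authors with Cufflinks per the file headers. Between 3 and 12 entries per library had a failed status and 78 too little data, 45 entries repeated a symbol, and 10780 entries were not tested.

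log2(FPKM + 1) was fitted in limma 3.58.1 (R 4.3.3, eBayes with trend, Benjamini-Hochberg adjustment over all tested genes), with line and siRNA for the effect over both lines and with 4 groups for the change in each line and their difference. Every adjusted p is from limma, and the procedure was tested on simulated data. Named genes were SET, the 12 largest shared rises and falls with siRNA groups apart, up to 3 such genes per list and direction, and the 4 largest opposite genes, leaving out small RNAs, LOC symbols, repeated symbols and SET copies. Not all of them are reported here. Other genes were named after their values were seen, and the members and lists were chosen with earlier results of these data known. Alternatives were another pseudocount (0.1), no filter or a mean FPKM of at least 5, median-of-ratios and quantile scaling, no trend, array weights, a replicate block, each library left out, the mean of the changes in each line, and separate fits. Python 3.11.15 did the remaining work.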

Additional observations from a re-analysis of the deposited data

Results flagged for a closer look

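The change with si-SET differed between the lines for 57 of the 170 genes given with values in the comparisons above, by limma's test of the Ctr line change minus the p53-KO line change (adjusted p from 4.9e-05 to 0.0471). Values are such differences on the log2(FPKM + 1) scale, and their count depends on single libraries, as given with the count over all genes. Over all tested genes the change differed for 2831 of 14813 (19.1%). Many of the 170 genes were named for large or opposite changes or after their values were seen. The count of 57 therefore follows in part from that choice. No explanation was tested.

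Genes that rose in both lines and rose more in the Ctr line included members of the p53 and stress lists, GDF15 at 1.79, ATF3 at 0.97, CHAC1 at 0.77, ASNS at 0.76, CDKN1A at 0.74, SESN2 at 0.69, TNFRSF10B at 0.64, NUPR1 at 0.48, GADD45A at 0.46, DDIT3 at 0.38, PMAIP1 at 0.37, MTHFD2 at 0.32 and GARS at 0.27. Others of this kind were RGS16 at 1.30, MMP3 at 1.22, MYLK at 0.89, CSF2 at 0.82, NOS3 at 0.67, ANKRD1 at 0.42, GABARAPL1 at 0.41, TXNRD1 at 0.40 and HERPUD1 at 0.39. Rises were larger in the p53-KO line for UCA1 at -0.93, CXCL3 at -0.60, FOSL1 at -0.37, TGFBI at -0.36 and ETV5 at -0.33.

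Falls were larger in the p53-KO line for COL3A1 at 1.00, AKR1C2 at 0.94, AKR1C1 at 0.91, EDN2 at 0.73, AKR1C3 at 0.66, ITGAV at 0.45, COL5A2 at 0.42 and AXL at 0.30. They were larger in the Ctr line for TNNT2 at -0.90, LBH at -0.67, CCNE2 at -0.66, CCNA2 at -0.54, SMAD6 at -0.52, GINS1 at -0.49, IFIT1 at -0.49, RFC5 at -0.45, AXIN2 at -0.41, CDH2 at -0.28 and ACTG1 at -0.28. For COL3A1, TNNT2 and NOS3 the ratios of mean FPKM were close in the 2 lines (10.1-fold and 9.45-fold lower, 7.4-fold and 7.77-fold lower, 11.9-fold and 13-fold higher), while their levels differed between the lines. For CSF2 the ratio of mean FPKM went the other way, 5.02-fold higher in the Ctr line and 15.2-fold higher in the p53-KO line, where 1 si-Ctr library was listed at 0.

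The genes in opposite directions gave TP53INP1 at 1.87, SESN1 at 1.86, FAS at 1.74 and KRTAP21-2 at -3.00. Genes that were not shared gave CTH at 0.96, SLC7A11 at 0.70, NQO1 at 0.30, ANP32B at -0.31, JUNB at -0.35, FHL2 at 0.45 and ACTB at -0.41.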

How the results depend on the processing

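The counts of genes called over both lines, the fall of SET and the count of shared lower genes stayed within 1.5 times of the reported value, and SET kept its direction and call, under every alternative tried. Shared higher genes numbered 1169 in place of 1916 when each line was fitted apart. The count of genes whose change differed between the lines, 2831, ranged from 1143 to 4589 with single libraries left out. Where this left a group of the p53-KO line with 1 library, its spread was taken from the remaining groups. KRTAP21-2 changed sign over both lines, from 0.17 to -0.53 with array weights (adjusted p = 0.324), to -0.10 without the first or second si-Ctr library of the p53-KO line, and to -0.034 and -0.17 without its first and second si-SET library, the full range with single libraries left out being -0.17 to 0.47. Depth is not given, so low genes could not be judged by their read numbers. The causes of these shifts were not tested.

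Replicate numbers recur in the labels of the siRNA groups. Same-numbered libraries did not deviate together in the Ctr line (correlations of -0.091, -0.05 and 0.078), where other-numbered ones had -0.091 to 0.143. In the p53-KO line every correlation was 0.0. With 2 or 3 libraries per group these values cannot show whether the numbers pair the libraries, and the main fit left the numbers out. With the replicate number within each line as a block, 6357 genes were called over both lines, 3633 were shared and 2569 differed between the lines.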

Other observations

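Host transcripts of small nucleolar RNAs, a list put together after the values were seen and so without a test, were examined for their change with si-SET. Their introns carry the small RNAs that guide modification of ribosomal RNA. Of 18 tested hosts 10 were shared higher (12.9% of all tested genes were), 1 (SNHG3) was shared lower and 7 were not shared, with median log2 changes of 0.42 in the Ctr line and 0.70 in the p53-KO line. GAS5, a growth arrest transcript of this kind, had 52.9, 54.6 and 51.2 FPKM with si-Ctr and 147, 147 and 159 with si-SET in the Ctr line, and 58.5 and 53 against 164 and 149 in the p53-KO line. The si-SET libraries of each line lay more than 2-fold above its si-Ctr libraries. SNHG1, SNHG5, SNHG6 and SNHG7 were among the other shared higher hosts, with log2 changes of 0.35 and 0.75, 0.89 and 0.96, 0.95 and 0.98 and 0.86 and 1.02 in the Ctr and p53-KO lines.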
